A study of Mus musculus with 24 samples.

Results

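The control-bandaged diabetic wounds are the 6 libraries of group Ctrl among 24 libraries of the series, and all 6 were used. They come from male mice of strain C57BLKS/J with the genotype Lepr (db/db), a mutated leptin receptor that makes the animals obese and diabetic. Each mouse received a full-thickness 6 mm punch wound on the back at 16 weeks of age. An alginate bandage without macrophage-conditioned medium was laid on the wound at once and renewed on day 3. Whole wound tissue was frozen on day 10, when the mice were 17.5 weeks old, and its RNA was sequenced after removal of ribosomal RNA. In the other 18 wounds the bandage held macrophage-conditioned medium, from M0 cells in the 4 wounds of CM0, from M1 cells in the 4 of CM1, from M2a cells in the 5 of CMA and from M2c cells in the 5 of CMC. Strain, genotype, sex, wound and day were the same in all 24. No unwounded skin, wound of a non-diabetic mouse or other day stands beside them, so the values describe what the wound RNA was made of and how widely 6 wounds differed. The sources used here do not give what the control bandage held apart from alginate.

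A full-thickness skin wound closes from its edges and from below. Keratinocytes at the margin switch from the basal and cornifying programme to wound keratins and crawl inwards, while fibroblasts fill the bed with collagen and matricellular proteins. Neutrophils enter first, macrophages follow and clear debris, and new vessels grow into the bed. In db/db mice closure is slow and macrophages and inflammatory signals are known to persist. Mouse back skin also carries hair follicles, which grow in waves, a layer of fat, and the panniculus carnosus, a thin sheet of skeletal muscle, so any of these can be in a piece of wound tissue. In bulk RNA, fewer cells of a type and less RNA per cell cannot be told apart.

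Each library held between 7267879 counts (Ctrl 4) and 11985292 counts (Ctrl 6), so that 1 count equalled 0.0834 to 0.138 CPM, a gene's count divided by the library total times 1000000. Ctrl 3 stood furthest from the other wounds. On the first principal component of log2 CPM, which held 47.5% of the variance, Ctrl 3 lay at 81.2 and Ctrl 4 at 12, and the other 4 wounds lay between -35.0 and -18.8. On the second, which held 18.1%, Ctrl 2 lay highest at 35.1 and Ctrl 6 lowest at -31.5. Ctrl 1 held the highest value of many inflammatory and epidermal genes described with their lists. Where a gene's call was lost without Ctrl 1, Ctrl 3 or Ctrl 4, this is said beside it. The rank correlation between libraries ran from 0.943 to 0.981, and no pair was close enough in its counts to be 1 library. Ddx3y, a gene of the Y chromosome, lay at 67.3 to 86.4 CPM and Xist at no more than 2.52 CPM, which matches the male label. Lepr itself was counted at 2.92 to 9.36 CPM, a gene-level count that does not check the mutation.

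To find which genes differed between wounds by more than other genes of the same level, a negative binomial model with no groups was fitted with edgeR, with a dispersion that follows abundance, and its goodness of fit was tested gene by gene. Of 18079 genes that averaged 1 CPM or more, 681 passed an adjusted p of 0.05 (3.77%), and 1366 had an unadjusted p under 0.05. A gene that passed this test is called variable from here on. Each list's count of variable genes below is to be read beside the 3.77% over all genes tested. The test asks about spread between wounds and not about a condition. Leaving out 1 wound gave between 563 (without Ctrl 4) and 677 (without Ctrl 3) variable genes. Of those 677, 405 were also variable with all 6 wounds, so which genes pass depends on Ctrl 3.

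By counts the wounds were dominated by fibrillar collagen and by a few noncoding RNAs. Between 14.5% and 18.3% of a wound's counts fell on its 10 highest genes, and between 753 genes (Ctrl 6) and 951 genes (Ctrl 3) held 50% of them. In every wound 15929 genes reached 1 CPM, and a further 4400 genes reached it in at least 1 wound but not in all. Protein-coding genes took 90.2% ± 1.29 of the counts (SD, n = 6) and genes annotated as lincRNA 5.31% ± 0.560.

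Col1a1 (ENSMUSG00000001506, GRCm38 chr11:94936224-94953042, plus strand), the alpha 1 chain of type I collagen, was the protein-coding gene with the most counts. It lay at 24124, 25056, 24769, 28888, 28535 and 30262 CPM in Ctrl 1 to Ctrl 6, a mean of 26939 ± 2591 CPM (SD, n = 6). Col3a1 (GRCm38 chr1:45311538-45349706, plus strand), the chain of type III collagen that is typical of young granulation tissue, lay between 21974 CPM (Ctrl 3) and 32655 CPM (Ctrl 6), with a median of 25211 CPM. Col1a2 (GRCm38 chr6:4504814-4541544, plus strand), the partner chain in type I collagen, lay between 17229 CPM (Ctrl 3) and 23099 CPM (Ctrl 6), with a median of 18947 CPM. These 3 genes alone took 7.26% ± 0.777 of all counts (SD, n = 6), and the 6 wounds differed little in them: the highest Col1a1 value was 1.25 times the lowest, and none of the 3 was variable.

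Levels of different genes are compared here per length, as TPM (each protein-coding gene's count over its length, scaled to sum to 1000000, from the exon lengths of GENCODE M21). On that scale Col1a1 averaged 19966 ± 2552 TPM, Col3a1 12886 ± 1990.1 TPM and Col1a2 7691 ± 1103 TPM (SD, n = 6). Only mt-Co1, a subunit of cytochrome oxidase encoded in mitochondria, stood among the collagens at 10363 ± 1592 TPM. The TPM ratio of Col3a1 to Col1a1 ran from 0.576 (Ctrl 5) to 0.753 (Ctrl 1), and that of Col1a2 to Col1a1 from 0.356 (Ctrl 4) to 0.404 (Ctrl 1). Further down the TPM order came Krt14 of basal keratinocytes (5896 ± 2147 TPM), the lipid carrier Apoe (5502 ± 698 TPM), the matricellular protein Sparc (5409 ± 829 TPM) and Lyz2, the lysozyme of myeloid cells (4332 ± 986 TPM).

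**Figure D1:**
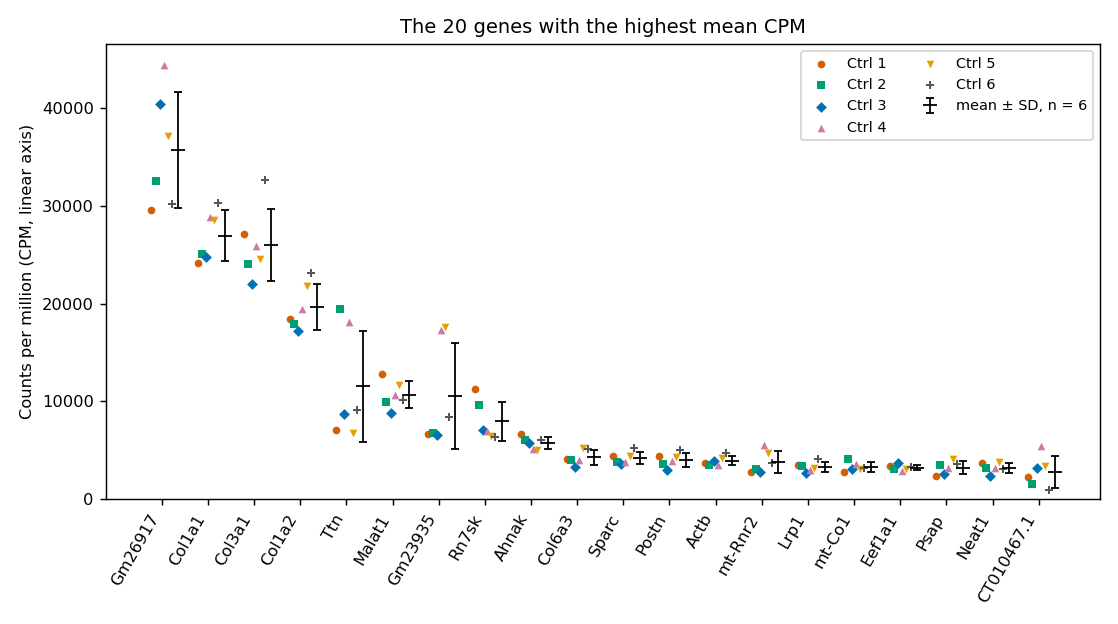
CPM (linear axis) of the 20 genes with the highest mean CPM in each of the 6 control wounds, with the mean ± SD (n = 6) in black. Gm26917, Col1a1 and Col3a1 are the 3 highest genes in every wound, with Col1a2 next except in Ctrl 2, where Ttn stands above it. Ttn and Gm23935 show the widest gaps, Ttn with Ctrl 2 and Ctrl 4 high and Gm23935 with Ctrl 4 and Ctrl 5 high.

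The gene with the highest mean CPM was noncoding. Gm26917, annotated as a lincRNA (GRCm38 chr17:39843013-39846341, plus strand), lay between 29599 CPM (Ctrl 1) and 44367 CPM (Ctrl 4), with a median of 34825 CPM. Next to it lies CT010467.1, annotated as rRNA (GRCm38 chr17:39846353-39848827, minus strand), which ranged from 917 CPM (Ctrl 6) to 5414 CPM (Ctrl 4) and was the only variable gene among the 20 highest (edgeR adjusted p = 0.00124). Its call was lost without Ctrl 4 and also without Ctrl 6. Lars2 and Mir6236 had a like order of wounds: Lars2 lay at 430.1, 295, 1058, 1368, 963 and 287 CPM in Ctrl 1 to Ctrl 6, and Mir6236 at 186, 134, 562, 747, 382 and 89.0 CPM. All 3 were thus highest in Ctrl 4 and lowest in Ctrl 6, and Gm26917 was highest in Ctrl 4 too. Gm23935, a 57-base locus on chromosome 16 by its coordinates (GRCm38 chr16:11144125-11144181), had 17309.6 CPM in Ctrl 4 and 17615 CPM in Ctrl 5 and between 6529.9 and 8404 CPM in the other 4 wounds. Mitochondrial rRNA moved in part with these, with mt-Rnr2 at 5592 CPM in Ctrl 4 and 4686 CPM in Ctrl 5 against 2803 to 3744 CPM elsewhere. How far residual ribosomal RNA sets the CPM of other genes was not tested.

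Gene lists for cell types and processes, 35 in number, held between 27.6% (Ctrl 3) and 31.5% (Ctrl 4) of a wound's counts. The list of fibrillar collagens and their cross-linking enzymes took the largest share at 9.39% ± 1.12, before abundant noncoding RNA at 6.96% ± 0.979, skeletal muscle at 2.17% ± 1.10, provisional and matricellular matrix at 1.67% ± 0.375, cytosolic ribosomal proteins at 1.15% ± 0.142, suprabasal and cornified epidermis at 1.10% ± 0.439 and the mitochondrial genome at 1.03% ± 0.184 (SD, n = 6 for each). Macrophage genes took 0.920% ± 0.145, basal keratinocyte genes 0.663% ± 0.146 and adipocyte genes 0.472% ± 0.126. Endothelial genes took 0.0932% ± 0.0211, neutrophil genes 0.0177% ± 0.0130 and T, NK and innate lymphoid genes 0.0142% ± 0.00313. These shares count RNA of listed genes and are not shares of cells. Lists with long genes gain by counts: per length, as a share of TPM, macrophage genes took 1.80% ± 0.295 and skeletal muscle genes 1.74% ± 1.04. On that scale blood endothelial genes took 0.0958% ± 0.0240, neutrophil genes 0.0915% ± 0.0750 and T, NK and innate lymphoid genes 0.0174% ± 0.00394.

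**Figure D2:**
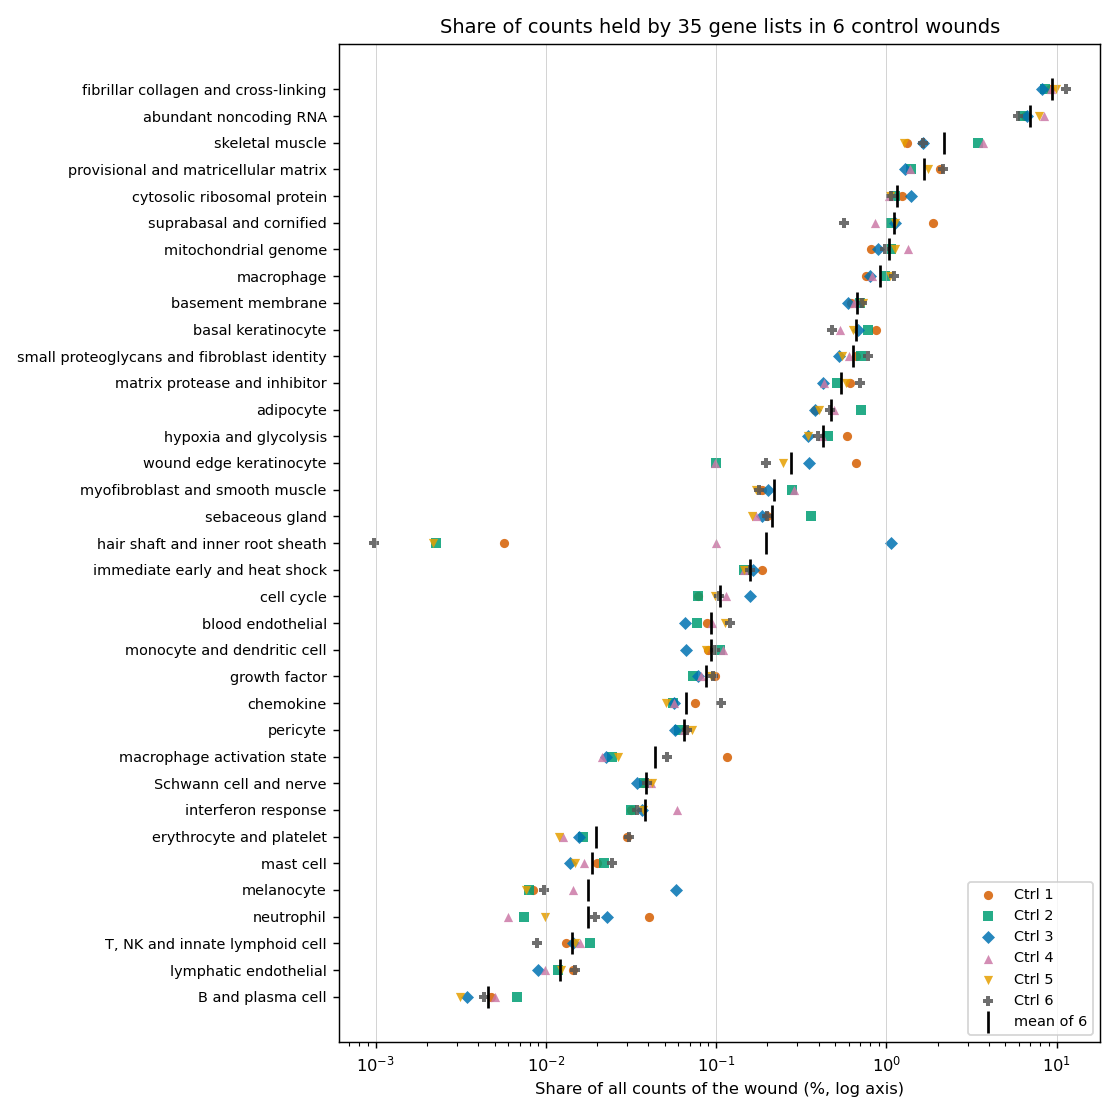
Share of all counts (percent, log axis) held by each of 35 gene lists in the 6 control wounds, with the mean as a black bar. Fibrillar collagen lies between 8.16% and 11.3% in every wound, while the hair list runs from 0.000976% in Ctrl 6 to 1.07% in Ctrl 3.

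Collagen genes of the wound bed were high in every wound and shared an order. Of the 24 tested collagen and cross-linking genes, 17 were highest in Ctrl 6 and 17 were lowest in Ctrl 3, and the list score, the mean log2 CPM of its tested members, differed by 1.52-fold between these 2 wounds. The number of variable genes, 1 of 24, was near the 3.77% of all genes tested. It was Plod2, a lysyl hydroxylase that modifies collagen, which reached 67.9 CPM in Ctrl 1 and lay between 15.1 and 37.1 CPM in the others (edgeR adjusted p = 0.00109), and it was not variable without Ctrl 1. Col6a3 of beaded-filament type VI collagen lay between 3247 CPM (Ctrl 3) and 5196 CPM (Ctrl 5), with a median of 4026 CPM. Col5a1, which nucleates collagen fibrils, lay between 2254 CPM (Ctrl 3) and 3490.1 CPM (Ctrl 6), with a median of 2349 CPM. Per length, the summed type VI chains stood at 0.150 to 0.192 of the summed type I chains. The median SD of log2 CPM over the list was 0.26, beside 0.25 over all genes tested. The median member of the list lay at 578 CPM. Genes of 100 to 1000 CPM had a median SD of 0.17, and those of 1000 CPM or more had 0.26.

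Among the provisional and matricellular proteins, which fill a wound before mature collagen does, 4 of 15 genes were variable. Sparc, Postn and Fn1 led the list: Sparc ranged from 3619.7 CPM (Ctrl 3) to 5218 CPM (Ctrl 6), Postn from 3000.4 CPM (Ctrl 3) to 5083 CPM (Ctrl 6) and Fn1 from 1608 CPM (Ctrl 3) to 3240.3 CPM (Ctrl 6). None of these 3 was variable. Thbs1, thrombospondin 1, a matrix protein that platelets and activated cells release, lay at 1518, 188, 274, 199, 323 and 596 CPM in Ctrl 1 to Ctrl 6. Its value in Ctrl 1 was 2.55 times the next one, in Ctrl 6 (edgeR adjusted p = 1.36e-12). Spp1, osteopontin, went another way, with 507 CPM in Ctrl 5 and 98.2 to 267 CPM in the other wounds (edgeR adjusted p = 2.89e-05), and it was no longer variable without Ctrl 5. Spp1 was chosen after its values were seen.

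Fibroblast identity genes held 0.639% ± 0.0981 of counts (SD, n = 6), and 3 of 22 were variable, beside 3.77% of all genes tested. Gsn, the actin-severing protein gelsolin, ranged from 896 CPM (Ctrl 5) to 2231 CPM (Ctrl 2), and the small proteoglycan Dcn from 685 CPM (Ctrl 5) to 1217 CPM (Ctrl 6); neither was variable. Pi16, a marker of adventitial fibroblasts, lay at 296, 205, 209, 108, 32.5 and 208 CPM in Ctrl 1 to Ctrl 6 (edgeR adjusted p = 1.01e-09). Its low value in Ctrl 5 carried the call, which was lost when that wound was left out. Without Ctrl 5 none of the 22 fibroblast genes was variable.

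The list score of contractile genes differed by 1.20-fold between wounds, while their single genes differed more. Acta2, the smooth muscle actin that marks myofibroblasts and vessel walls, lay between 93.4 CPM (Ctrl 4) and 221 CPM (Ctrl 6), with a median of 179.8 CPM. Of 13 tested genes of that list 1 was variable, beside 3.77% of all genes tested. It was the tropomyosin Tpm2 (edgeR adjusted p = 0.0352). Its highest values, 728 and 714 CPM, were in Ctrl 2 and Ctrl 4, the wounds that were also highest in skeletal muscle genes. Its call was lost when Ctrl 2, Ctrl 4, Ctrl 5 or Ctrl 6 was left out. Tpm1 and Des, the other leading members, are made in skeletal muscle too and had the same 2 wounds on top. Tagln, a common myofibroblast marker, was counted at only 0.377 to 1.24 CPM. In the annotation 67.9% of its exon bases also lie in exons of other genes, chiefly Gm48529 on the opposite strand, and the sources used here do not give how such reads were counted, so its value is no measure of myofibroblasts.

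Vessel genes were lowest in Ctrl 3. Of 21 blood endothelial genes 17 were lowest in Ctrl 3 and 10 were highest in Ctrl 6, and the list score differed by 1.86-fold between these wounds. The score of 7 tested lymphatic genes differed by 1.68-fold, with Ctrl 3 below the other wounds, and that of 8 pericyte genes by 1.26-fold. None of these genes was variable on its own, beside 3.77% of all genes tested. Cdh5, the cadherin of endothelial junctions, ranged from 72.1 CPM (Ctrl 3) to 144 CPM (Ctrl 6), with a median of 106 CPM. Pecam1 ranged from 70.7 CPM (Ctrl 3) to 135 CPM (Ctrl 6) and Rgs5, a pericyte marker, from 123 CPM (Ctrl 3) to 222 CPM (Ctrl 6). In all 3 genes Ctrl 3 was the lowest and Ctrl 6 the highest wound. The lymphatic receptor Lyve1 lay between 3.50 and 13.4 CPM, and Ccl21a, a lymphatic chemokine, had 0 counts in all 6 wounds, which allows up to 0.250 to 0.413 CPM.

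Epidermis was present in every wound but in different amounts and states. Of the basal keratins, Krt14 lay at 3714, 1679, 2417, 1390.4, 2067 and 1655 CPM and Krt5 at 1209, 1849.8, 1299, 1189, 1298 and 715 CPM in Ctrl 1 to Ctrl 6. Neither was variable, and the 2 genes did not share the same top wound. Krt15, a keratin of basal cells and of the follicle bulge, was variable with its highest value in Ctrl 2, 1249 CPM, and a range of 323 to 724 CPM in the others (edgeR adjusted p = 0.000934). Its call was lost without Ctrl 2.

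Suprabasal and cornified genes were among the most uneven of the epidermis, and 13 of 26 were variable. Flg, filaggrin, which bundles keratin in the cornified layer, lay at 5755, 2234, 2266, 2067, 2279 and 1140.2 CPM in Ctrl 1 to Ctrl 6 (edgeR adjusted p = 0.00918). Ctrl 1 stood above and Ctrl 6 below the other 4, and the call was lost when either was left out. Krt1 and Krt10, the paired keratins of the spinous layer, ranged from 1351 to 3454 CPM and from 807 to 1748 CPM; both were lowest in Ctrl 6 and highest in Ctrl 1, and neither was variable. Hrnr, hornerin, a relative of filaggrin, reached 871 CPM in Ctrl 1 and 156 to 314 CPM in the others (edgeR adjusted p = 1.8e-07), and its call was lost without Ctrl 1. Of the 13 variable genes 9 had their highest value in Ctrl 1. The count was 5 without Ctrl 1, 4 without Ctrl 6 and 18 without Ctrl 3.

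Wound edge keratins, which healthy interfollicular epidermis scarcely makes and which appear in keratinocytes that migrate, were uneven too, with 13 of 22 genes variable. Among these, S100a7a was tested only because Ctrl 3 is high. Krt6b lay at 2146, 186, 738, 112, 673 and 627 CPM in Ctrl 1 to Ctrl 6 (edgeR adjusted p = 2.87e-16), so that Ctrl 1 was 19.1 times Ctrl 4. Krt16, its type I partner, lay at 1547, 203, 532, 189, 646 and 535 CPM (edgeR adjusted p = 1.78e-09). Krt6a lay at 1321, 156, 565, 92.5, 366 and 379 CPM (edgeR adjusted p = 1.19e-14). These 3 keratins share their order at both ends, with Ctrl 1 on top and Ctrl 2 and Ctrl 4 at the bottom. Krt17 had its highest value in Ctrl 3 instead, 933 CPM, before Ctrl 1 with 639 CPM, and Gjb2, the gap junction protein connexin 26, did likewise with 323 CPM in Ctrl 3 and 266 CPM in Ctrl 1. Both genes are also made in hair follicles, and Ctrl 3 is the wound in which hair genes were highest. How much of their RNA comes from follicles was not tested.

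Set against the basal layer, the wound programme still differed between wounds. The summed TPM of Krt6a, Krt6b, Krt16 and Krt17 stood at 1.09 of the summed TPM of Krt5 and Krt14 in Ctrl 1, at 0.766 in Ctrl 3, at 0.682 in Ctrl 6, at 0.600 in Ctrl 5, at 0.320 in Ctrl 4 and at 0.237 in Ctrl 2. For the spinous pair Krt1 and Krt10 the same ratio kept within 0.543 and 0.758. The ratio of spinous to basal keratin thus ranged less widely across wounds than that of wound keratins to basal keratins. Reads of Krt6a and Krt6b, which are near copies, may be shared between them.

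Hair and pigment genes gave the widest differences among the 35 lists, and they lay in Ctrl 3 and, at a lower level, in Ctrl 4. All 28 members of the hair list, which covers the shaft and its inner sheath, were highest in Ctrl 3 and 26 were second in Ctrl 4. All 28 averaged 1 CPM or more and were variable, but 11 of them averaged under 1 CPM over the other 5 wounds, so they were tested only because Ctrl 3 is high and had to differ. Under edgeR's filterByExpr only 2 were tested, and both were variable. The values of this list are therefore given as a description. Ctrl 3 alone held 92.2% of the list's counts over the 6 wounds and Ctrl 4 held 6.87%. Over 25 genes with more than 3 counts in Ctrl 4 the median ratio of Ctrl 3 to Ctrl 4 was 10.6. In the other 4 wounds the list took between 0.000976% and 0.00568% of counts, and 17 of the 28 genes had 0 counts in at least 1 wound.

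Tchh, trichohyalin, which hardens the inner root sheath, lay at 13.9, 4.92, 3598, 303, 5.65 and 3.17 CPM in Ctrl 1 to Ctrl 6. Krt71, an inner root sheath keratin, lay at 6.94, 0.840, 2292, 249, 0.879 and 0.0834 CPM, and its value in Ctrl 3 was 9.2 times that in Ctrl 4. Its partner Krt25 lay at 6.10, 0.480, 1348, 154, 0.377 and 0.250 CPM. All 3 show the same order, with Ctrl 3 far above, Ctrl 4 next, Ctrl 1 a small remainder and the other wounds lower still, where Krt71 and Krt25 had few counts and Tchh 38 to 45. Krt27 had 0 counts in Ctrl 2 and 606 CPM in Ctrl 3, at least 1683-fold higher when 3 counts stand for the 0. Krt33b, a keratin of the hair cortex, had 0 counts in 4 wounds, 2.89 CPM in Ctrl 4 and 144 CPM in Ctrl 3.

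The 15 variable genes with the smallest p at a mean of at least 10 CPM were Krt27, Krt25, Krt71, Tchh, Krt33a, Krt35, Krt83, Krt31, Krt87, Krt73, Krt81, Krt33b, Krt28, Krt86 and Krt75, with edgeR adjusted p from 6.22e-199 to 8.91e-86. All are keratins of the follicle except Tchh, and 4 of them (Krt31, Krt33a, Krt33b and Krt86) were tested only because Ctrl 3 is high. Hair keratins are close copies of each other, so reads of single members may be shared. The compartments of the follicle did not keep 1 ratio: the summed TPM of 6 inner root sheath keratins was 3.03 times that of 8 cortex and cuticle keratins in Ctrl 3 and 8.54 times in Ctrl 4. Keratin-associated proteins, which follow late in shaft building, summed to 257.7 CPM in Ctrl 3 and 4.68 CPM in Ctrl 4. Regulators of the follicle were variable at a lower level, with Lef1 of the Wnt pathway at 48.1 CPM in Ctrl 3 and 12.1 CPM in Ctrl 4 against 0.720 to 2.26 CPM elsewhere. Lef1 was chosen after its values were seen.

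Pigment genes followed the same 2 wounds. Of 9 melanocyte genes 7 were variable, each highest in Ctrl 3. Among these, Slc45a2 and Oca2 were tested only because Ctrl 3 is high. Pmel, which builds the fibrils of the melanosome, lay at 7.04, 4.68, 158, 29.4, 6.15 and 5.09 CPM in Ctrl 1 to Ctrl 6 (edgeR adjusted p = 9.5e-42). Dct lay at 7.36, 2.52, 139, 27.7, 3.14 and 2.00 CPM and Tyrp1 at 3.36, 0.720, 103, 15.4, 2.01 and 1.25 CPM; both encode enzymes of melanin synthesis. Mitf and Kit, which many other cells also make, were not variable, and Mitf stayed within 46.4 and 68.3 CPM. Without Ctrl 3, 16 of the 17 hair genes that were still tested were variable. Of the melanocyte list 7 genes were still tested, Mitf and Kit among them, and 4 were variable. With Ctrl 4 left out as well, the counts were 5 of 9 hair genes and 0 of 6 pigment genes. The genes that dropped out at this step had been tested without Ctrl 3 only because Ctrl 4 is high. Their calls there are given as a description.

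Promoters are shown because the hair genes, which were highest in Ctrl 3, often held a short motif close to their start. The melanocyte genes that were high in the same wound did not hold it. Each line gives the RefSeq sequence of the 100 bases before the start, on the gene's strand and 5′ to 3′, with every TATAAA within 60 bases of the start in capitals. RefSeq starts can differ from the GENCODE coordinates given above, and that of Col1a2 lies inside the GENCODE span of the gene. Krt71 (GRCm38.p6 chr15:101743098-101743197, minus strand), Krt25 (chr11:99322952-99323051, minus strand) and Krt28 (chr11:99374904-99375003, minus strand) are inner root sheath keratins, Myh4 (chr11:67237712-67237811, plus strand) and Cxcl3 (chr5:90786001-90786100, plus strand) are variable genes of muscle and of inflammation, and Col1a2 (chr6:4505518-4505617, plus strand) is a collagen gene of high level that was not variable.
Krt71: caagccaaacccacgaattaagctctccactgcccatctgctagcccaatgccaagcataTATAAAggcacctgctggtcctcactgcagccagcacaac
Krt25: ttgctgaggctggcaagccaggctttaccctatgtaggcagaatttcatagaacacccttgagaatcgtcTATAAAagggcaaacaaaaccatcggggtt
Krt28: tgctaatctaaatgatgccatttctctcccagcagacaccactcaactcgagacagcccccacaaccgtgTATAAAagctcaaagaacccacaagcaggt
Myh4: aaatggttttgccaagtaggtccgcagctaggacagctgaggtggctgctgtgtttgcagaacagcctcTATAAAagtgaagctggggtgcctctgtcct
Cxcl3: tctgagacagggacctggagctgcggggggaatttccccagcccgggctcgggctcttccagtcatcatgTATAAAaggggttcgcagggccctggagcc
Col1a2: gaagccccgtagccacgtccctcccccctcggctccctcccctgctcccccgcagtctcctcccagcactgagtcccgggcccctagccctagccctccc

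The letters TATAAA stood within 60 bases before the start, on the gene's strand, in 14 of 21 hair genes with a promoter in the table (66.7%). The share was 23% of 487 variable genes, 2.90% of 12015 tested genes and 3.44% of all 27025 promoters, or 4.66% of all promoters when either strand counted. Suprabasal genes held it in 7 of 20, wound edge genes in 6 of 15, skeletal muscle genes in 4 of 20, and collagen and ribosomal protein genes in 0 of 13 and 0 of 22. Melanocyte genes held it in 0 of 6 and cell cycle genes, also mostly highest in Ctrl 3, in 0 of 23. The variable genes printed above all hold it, while the variable genes Tchh, Krt75, Tyrp1, Dct, Saa3 and Cxcl2 do not. Many hair keratins are copies of 1 ancestral gene, so their promoters are not independent counts, and no other motif was searched. A match describes the letters and is not a measured binding site.

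**Figure D3:**
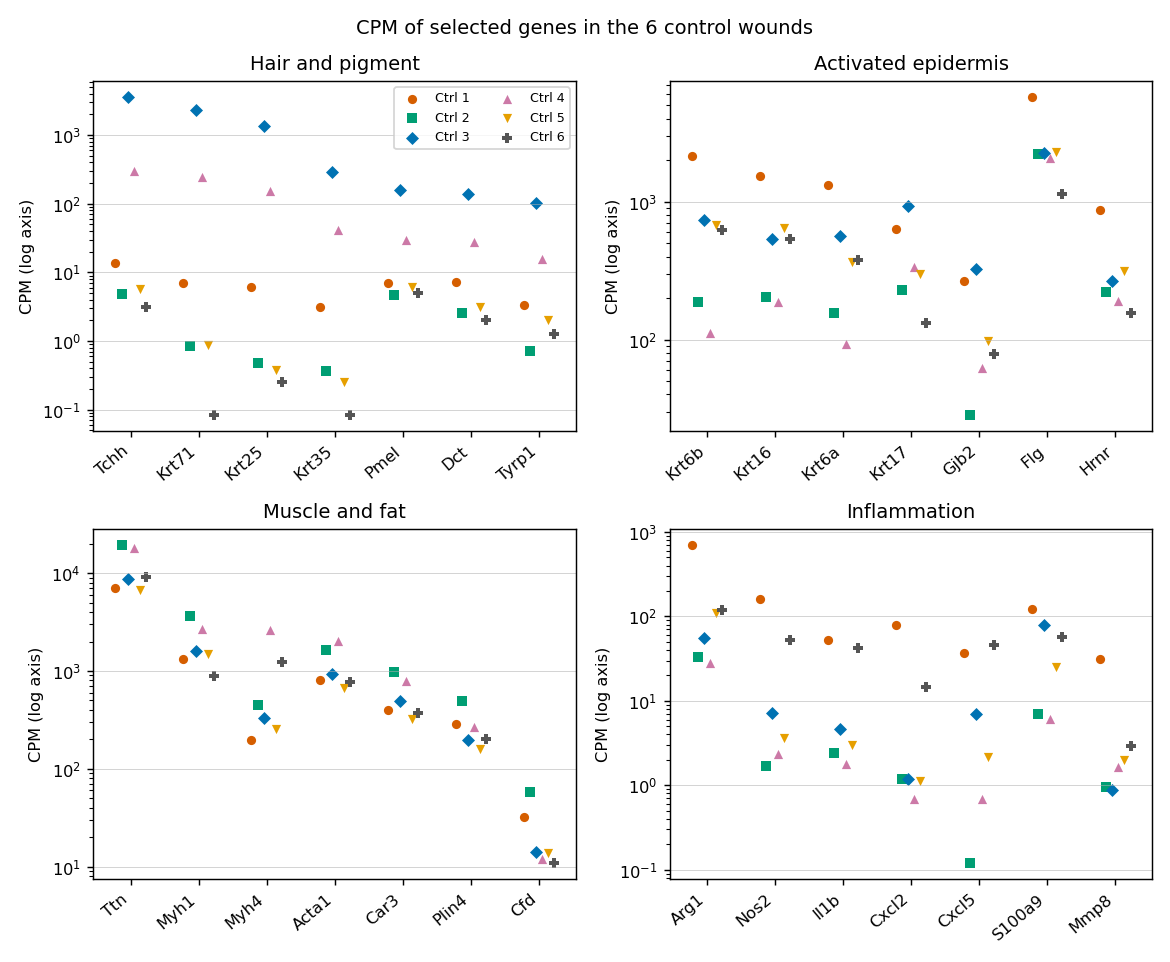
CPM (log axis) of selected genes in the 6 control wounds, in panels for hair and pigment, activated epidermis, muscle and fat, and inflammation. Ctrl 3 and then Ctrl 4 stand on top for hair and pigment, and Ctrl 1 for most of the activated epidermis. Ctrl 2 and Ctrl 4 lead most muscle genes, Ctrl 2 fat, and Ctrl 1 and Ctrl 6 most inflammation genes. Myh4 is highest in Ctrl 4 and then Ctrl 6, and S100a9 in Ctrl 1 and then Ctrl 3.

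Skeletal muscle RNA was high in every wound and uneven, with 18 of 22 genes variable. Ttn, titin, the giant spring of the sarcomere, lay at 7034, 19444, 8694, 18131, 6779.9 and 9116 CPM in Ctrl 1 to Ctrl 6; Ctrl 2 and Ctrl 4 were high, but the spread did not pass the test (edgeR adjusted p = 0.0992). Acta1, the actin of skeletal muscle, lay at 816, 1622, 923, 2046, 668 and 777 CPM with the same 2 wounds on top (edgeR adjusted p = 0.049). Myh1, the myosin of fast 2X fibres, lay at 1339.8, 3624, 1594, 2694, 1508 and 890.3 CPM (edgeR adjusted p = 0.022). The calls of Acta1 and Myh1 were lost in several of the fits that left out a wound.

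Fibre types differed as well as amounts. Myh4, the myosin of fast 2B fibres, lay at 197, 453, 328, 2608, 254 and 1244 CPM in Ctrl 1 to Ctrl 6 (edgeR adjusted p = 6.93e-18), with Ctrl 4 and then Ctrl 6 on top, and it stayed variable in every fit that left out a wound. The TPM ratio of Myh4 to Myh1 was 1.48 in Ctrl 6 and 1.02 in Ctrl 4 and ran from 0.132 to 0.217 in the other 4 wounds. Pvalb, the calcium buffer of fast fibres, was highest in Ctrl 4 with 457 CPM and not variable without it, and Myh2 of 2A fibres was highest in Ctrl 2 with 263 CPM and lowest in Ctrl 6 with 35 CPM. Myosins of developing and regenerating muscle were present, with Myh3 at 47.5 to 145 CPM and Myh8 at 88.2 to 474 CPM, both highest in Ctrl 2 and lowest in Ctrl 6. Myh7 of slow fibres had at most 0.480 CPM. Pvalb, Myh2, Myh3, Myh7 and Myh8 were chosen after their values were seen.

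Fat genes were led by Ctrl 2. Of 17 adipocyte genes 8 were variable, all 8 had their highest value in Ctrl 2, and 0 were variable when that wound was left out. Car3, a carbonic anhydrase of fat and muscle, lay at 397, 971, 496, 781, 319 and 376 CPM in Ctrl 1 to Ctrl 6 (edgeR adjusted p = 0.0362), and its call was lost without Ctrl 4 and without Ctrl 5 too. Cfd, adipsin, lay at 31.9, 57.4, 14.2, 12, 13.7 and 10.8 CPM (edgeR adjusted p = 1.2e-05). Lpl and Cd36, which take up fatty acids and are made by macrophages too, ranged from 758 to 1569 CPM and from 667 to 1205 CPM and were not variable. Scd1, a desaturase of sebocytes and fat cells, was highest in Ctrl 2 as well, with 2811 CPM against 665 to 1254 CPM (edgeR adjusted p = 0.0155), and its call was lost without Ctrl 2 and also without Ctrl 5. It made up 61.8% of the sebaceous gland list.

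Macrophage identity genes were high in every wound, with a list score that differed by 1.60-fold and was highest in Ctrl 6. Of 22 genes 2 were variable, Cd163 and Cd14, beside 3.77% of all genes tested. Apoe, a lipid carrier that made up 26.4% of the list's counts, ranged from 2000.2 CPM (Ctrl 4) to 2760.4 CPM (Ctrl 5). The lysosomal protease Ctsb ranged from 1623 CPM (Ctrl 1) to 2801 CPM (Ctrl 6). Which cells made the RNA of Apoe and Ctsb was not tested. The growth factor receptor Csf1r, which macrophages need to survive, averaged 401 ± 81.2 CPM and the mannose receptor Mrc1 368 ± 92.4 CPM (SD, n = 6). Both were highest in Ctrl 6, and neither was variable. Cd163, a haemoglobin scavenger of resident macrophages, was 218 CPM in Ctrl 6 and 62.1 to 123 CPM elsewhere (edgeR adjusted p = 5e-05), and its call was lost without Ctrl 6. Cd14, part of the endotoxin receptor, was 80.5 CPM in Ctrl 1, 41.4 CPM in Ctrl 6 and 13.5 to 18.8 CPM in the other 4, and it was not variable without Ctrl 1. Cd163 was chosen after its values were seen.

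The RNA of macrophage activation genes, in contrast, split the wounds, and 7 of 15 genes of that list were variable. Which cells made this RNA was not tested. Arg1, the arginase of repair macrophages, lay at 701, 33.0, 55.2, 28.3, 108 and 118 CPM in Ctrl 1 to Ctrl 6 (edgeR adjusted p = 7.18e-41). Nos2, inducible nitric oxide synthase, the enzyme of inflammatory macrophages that competes for the same substrate, lay at 162, 1.68, 7.22, 2.34, 3.64 and 52.2 CPM (edgeR adjusted p = 2.37e-58). Both were highest in Ctrl 1 and next in Ctrl 6, though textbook schemes set them against each other. Il1b, the inflammatory cytokine, was 52.4 CPM in Ctrl 1 and 41.7 CPM in Ctrl 6 against 1.79 to 4.59 CPM in the other 4 wounds. Ptgs2, the inducible cyclooxygenase, was 54.9 CPM in Ctrl 1 and 16.8 CPM in Ctrl 6 against 1.51 to 2.84 CPM. Clec10a and Tgm2, the other leading genes of the list, were not variable. Arg1, Nos2 and Il1b stayed variable in every fit that left out a wound.

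Chemokines that draw neutrophils had the same 2 wounds on top. Of 17 chemokine genes 9 were variable. Cxcl2 was 78.3 CPM in Ctrl 1 and 14.4 CPM in Ctrl 6 against 0.688 to 1.20 CPM in the other 4 wounds (edgeR adjusted p = 1.15e-41). Cxcl3 was 56.0 CPM in Ctrl 1 and 8.18 CPM in Ctrl 6 and had 0 to 0.219 CPM elsewhere, at least 136-fold higher in Ctrl 1 than in the wounds at 0 counts when 3 counts stand for the 0 (edgeR adjusted p = 4.6e-48). Cxcl5 had the reverse order of the pair, with 46.3 CPM in Ctrl 6 and 37.1 CPM in Ctrl 1 against 0.120 to 7.0 CPM. Saa3, an acute-phase protein outside the lists, was 189 CPM in Ctrl 1 and 157 CPM in Ctrl 6 against 2.48 to 34.1 CPM (edgeR adjusted p = 3.97e-68). Ccl6 and Ccl9, chemokines of resident myeloid cells, were at a higher level, from 114 to 293 CPM and from 93.5 to 249 CPM, with Ctrl 6 highest. Cxcl5 and Saa3 were chosen after their values were seen.

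Neutrophil genes took 0.0177% of counts and 0.0915% of TPM on average. Of 12 tested genes 8 were variable, beside 3.77% of all genes tested. Without Ctrl 1 only 10 still averaged 1 CPM and were tested, and 5 were variable. The genes that dropped out were tested only because Ctrl 1 is high. S100a9, a calprotectin subunit, lay at 123, 6.96, 78.8, 6.05, 25.2 and 57.2 CPM in Ctrl 1 to Ctrl 6, and S100a8, its partner, at 107, 16.1, 87.1, 8.39, 24.9 and 32.0 CPM. Wounded keratinocytes make both too, and both were high in Ctrl 3, where Il1b with 4.59 CPM and Cxcl2 with 1.20 CPM were not. Mmp8, neutrophil collagenase, was 31.1 CPM in Ctrl 1 and 0.875 to 2.92 CPM in the others, and it was not variable without Ctrl 1. The granule genes Mpo and Ngp had at most 2.25 and 0.841 CPM, and Ly6g, the surface marker of mouse neutrophils, had at most 0.210 CPM and 0 counts in 5 wounds. What share of the S100a8 and S100a9 counts came from epidermis was not tested. Of the lists that hold neutrophil, wound edge, chemokine and activation genes, Ctrl 1 had the highest value in 7 of 8, 9 of 13, 4 of 9 and 5 of 7 variable genes. The neutrophil list includes genes tested only because Ctrl 1 is high, so its count is given as a description. Ctrl 1 was the highest wound in 22.5% of all variable genes and in 13.3% of all genes tested.

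Lymphocyte RNA was low. None of 14 T, NK and innate lymphoid genes was variable, beside 3.77% of all genes tested, but their median SD of log2 CPM was 0.56, against 0.39 for all genes of 1 to 10 CPM. Their list score differed by 1.85-fold and was highest in Ctrl 2 and lowest in Ctrl 6. Cd3e, a chain of the T cell receptor complex, ranged from 2.00 CPM (Ctrl 6) to 5.37 CPM (Ctrl 4) and Foxp3 of regulatory T cells from 2.63 to 4.68 CPM. Gata3, which made up 52.0% of that list's counts, is also made by keratinocytes. Antibody genes apart from Ighm were close to 0: Ighm averaged 41.6 ± 12.7 CPM (SD, n = 6), and Igkc, Jchain and Cd79a averaged 0.194, 0.191 and 0.415 CPM. Mast cell proteases were present in every wound, at a summed 44.3 CPM (Ctrl 5) to 121 CPM (Ctrl 6), with Cma1 from 14.1 to 37.5 CPM and Mcpt4 from 9.42 to 28.2 CPM. Hdc, the enzyme that makes histamine, was the 1 variable mast cell gene, with 30.9 CPM in Ctrl 1 and 29.4 CPM in Ctrl 6 against 3.77 to 5.91 CPM (edgeR adjusted p = 3.13e-09); neutrophils make it as well.

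Blood left a small and uneven trace. Hbb-bs, a beta globin, ranged from 23.6 CPM (Ctrl 5) to 94.5 CPM (Ctrl 6) (edgeR adjusted p = 0.000692), and its call was lost without Ctrl 5 and also without Ctrl 6. Pf4, a chemokine of platelets and of some macrophages, was 104 CPM in Ctrl 1 and 87.5 CPM in Ctrl 6 against 35.8 to 55.8 CPM, and its call was lost without Ctrl 1. Ppbp, the platelet chemokine beside it in the genome, was 29.2 CPM in Ctrl 1, 1.5 CPM in Ctrl 6 and 0.413 to 0.628 CPM elsewhere (edgeR adjusted p = 2.47e-22), and without Ctrl 1 it averaged under 1 CPM and was not tested. Ctrl 1 and Ctrl 6 thus stood on top in blood genes as in inflammatory genes, and the part of blood in the inflammatory values was not tested.

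The growth factor score differed by 1.14-fold between wounds, the least of the 35 lists. Of 25 genes 2 were variable, beside 3.77% of all genes tested, and 0 were without Ctrl 1. Igf1, made by wound macrophages and fibroblasts, lay between 215 CPM (Ctrl 2) and 327 CPM (Ctrl 6). Vegfa, which drives vessel growth, lay at 218, 54.4, 47.3, 65.4, 69.7 and 97.2 CPM in Ctrl 1 to Ctrl 6 (edgeR adjusted p = 2.37e-08), and it was not variable without Ctrl 1. Low-oxygen and glycolysis genes had the same wound on top: 6 of 19 were variable, each highest in Ctrl 1, and 0 were variable without it. Egln3, an oxygen-sensing hydroxylase that hypoxia induces, was 333 CPM in Ctrl 1 and 53.9 to 114 CPM elsewhere (edgeR adjusted p = 2.67e-13). The glycolytic enzymes with the most counts, Aldoa, Pkm and Ldha, were not variable.

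Proteases of the matrix were led by Mmp2, from 669 to 1143 CPM, and Mmp14, from 561 to 924 CPM, neither of them variable. Of 26 interferon response genes 23 were highest in Ctrl 4, and the list score differed by 2.28-fold between wounds. Singly 2 of the 26 were variable, beside 3.77% of all genes tested, and 0 were without Ctrl 4: Ifit3 with 39.1 CPM against 7.44 to 12.2 CPM (edgeR adjusted p = 0.00283) and Mx1 with 21.7 CPM against 3.96 to 8.92 CPM (edgeR adjusted p = 0.0297). Ifit3 was chosen after its values were seen. Of 26 cell cycle genes 25 were highest in Ctrl 3 and 17 were lowest in Ctrl 2, and the list score differed by 1.94-fold between these wounds. None was variable on its own, and Mki67, a marker of dividing cells, ran from 181 CPM (Ctrl 1) to 463 CPM (Ctrl 3). Members of a list that share an order of wounds share their libraries and are not independent counts.

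**Figure D4:**
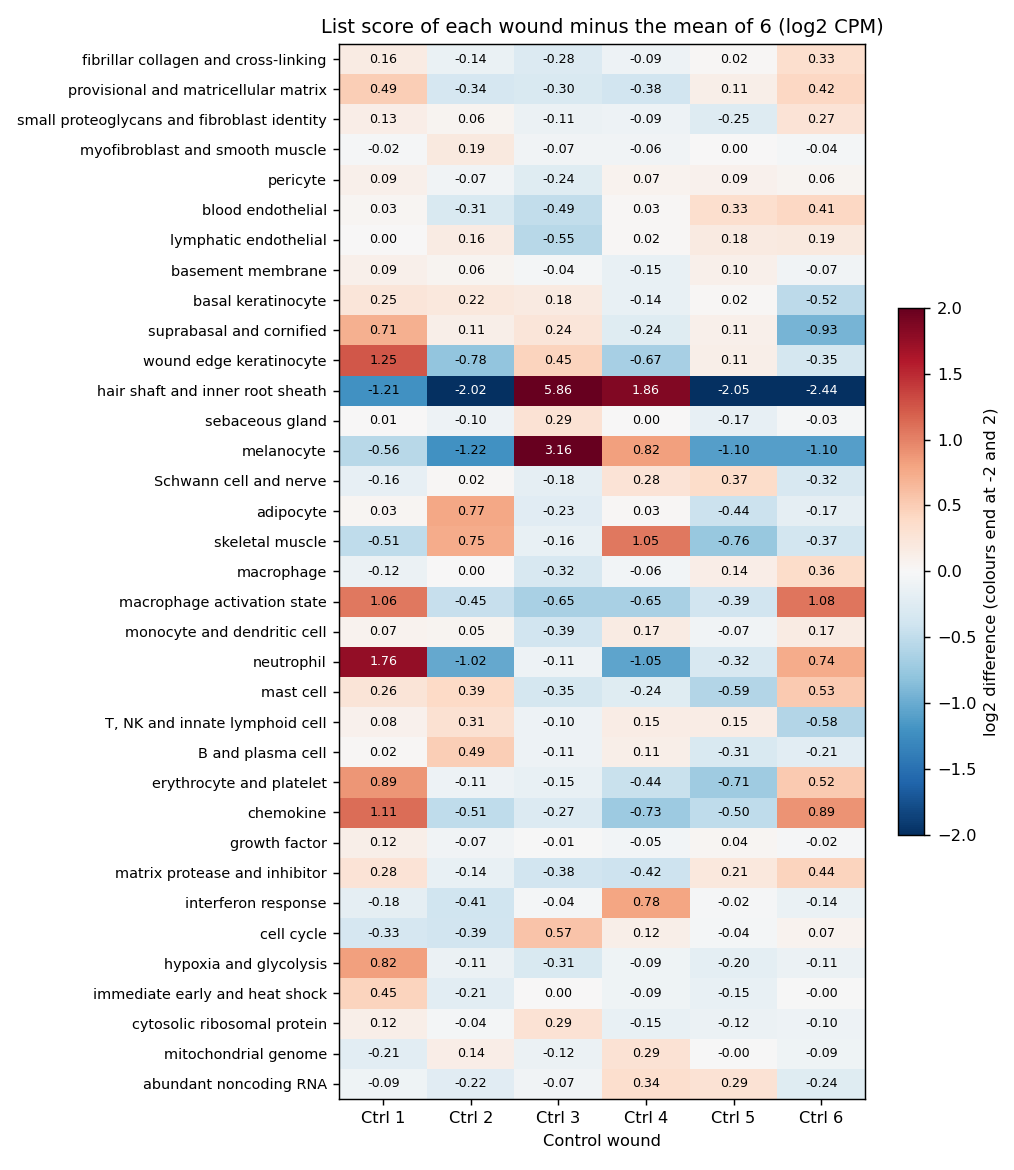
List score (mean log2 CPM of the members with a mean of at least 1 CPM) of each control wound minus the mean of the 6, for 35 lists. Red is above and blue below the mean. Deep red lies in Ctrl 3 for hair and melanocyte genes and in Ctrl 1 for wound edge and neutrophil genes. Ctrl 1 and Ctrl 6 stand high for activation genes, and Ctrl 2 and Ctrl 4 for skeletal muscle.

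Across the genome most genes differed little between wounds. The median SD of log2 CPM over 18079 genes was 0.25. It was 0.39 for genes with a mean of 1 to 10 CPM, 0.19 from 10 to 100 CPM, 0.17 from 100 to 1000 CPM and 0.26 for the 60 genes of 1000 CPM or more. The most even genes at an average of 50 CPM or more were Rc3h2, Erp29, Exoc4, Chd9 and Smg1. Rc3h2, an RNA-binding protein that promotes mRNA decay, lay between 128 and 132 CPM in all 6 wounds. Of the 681 variable genes 354 were highest in Ctrl 3 (52.0%), a wound that was the highest in 28.6% of all tested genes, 153 in Ctrl 1, 80 in Ctrl 2, 48 in Ctrl 4, 39 in Ctrl 6 and 7 in Ctrl 5. The lists held 154 of the variable genes. Ctrl 6 was the lowest wound in 222 of the 681, more than any other wound.

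**Figure D5:**
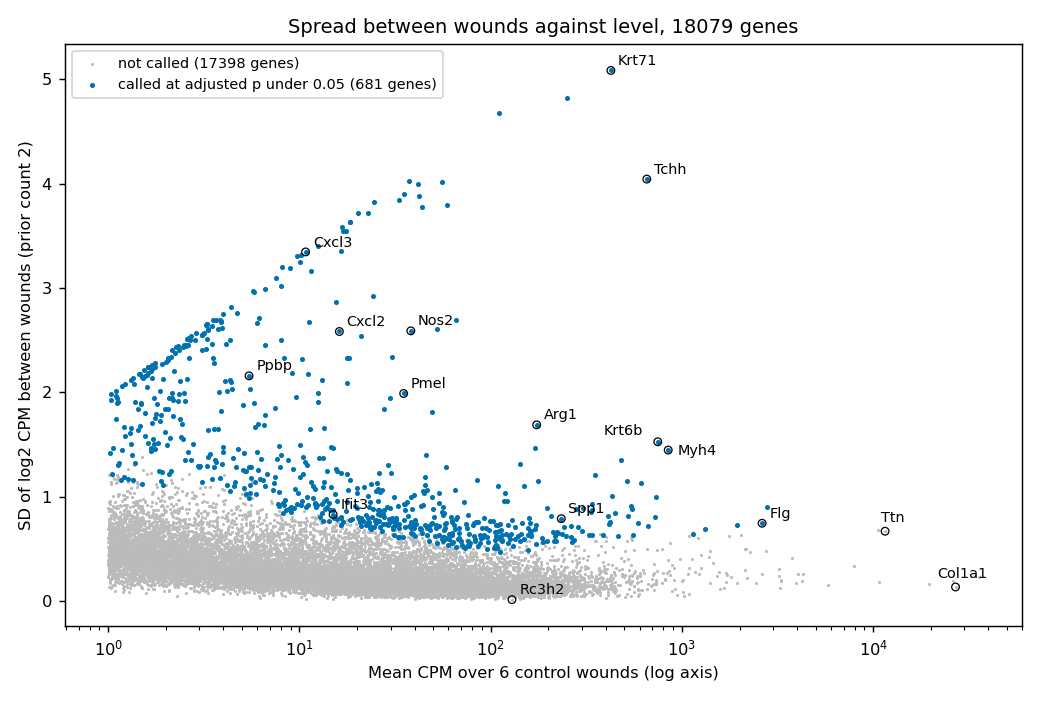
SD of log2 CPM between the 6 control wounds against mean CPM (log axis) for 18079 genes, with the 681 variable genes in blue and named genes circled. Krt71, Tchh and Cxcl3 lie at the top, and Col1a1 and Rc3h2 lie near the floor.

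Set beside the 18 wounds under conditioned medium, with scores taken over all 24 libraries, the control wounds reached outside the range of the others in most lists, at both ends. The highest control wound lay above the 18 others in 13 of 35 lists and the lowest control wound below them in 16, with 3 lists in both counts and 9 in neither. Most of these gaps were small: 5 lists exceeded the upper end by more than 0.3 on the log2 CPM scale and 2 lists the lower end.
The hair score of Ctrl 3, 6.92 on that scale, lay above the range of the 18 others, -1.15 to 3.21. Its melanocyte score of 5.49 lay above their highest, 3.51, and its cell cycle score of 5.34 above their highest, 4.88. Ctrl 1 lay above them in low-oxygen and glycolysis genes with 7.32 against a highest of 7.02, and Ctrl 4 in interferon genes with 4.23 against 3.64. At the lower end, wound edge scores of the control wounds ran from 3.57 to 5.60 against 3.96 to 6.04 in the others, and blood and platelet scores from 2.79 to 4.39 against 3.15 to 4.34. Activation scores ran from 2.08 to 3.81 against 2.23 to 3.88. None of these gaps was tested. The median SD of log2 CPM was 0.25 among the controls and 0.23 without Ctrl 3. It was 0.24 in CMA, 0.21 in CM1, 0.20 in CMC and 0.20 in CM0. Groups differ in size, and these differences in spread were not tested.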

How the data were processed

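The deposited files hold raw gene counts made by the authors, 1 table of 54232 genes per library. Per the submitters' processing notes, the tools included bcl2fastq 2.17, FastQC, cutadapt, STAR, featureCounts and DESeq2, with genome GRCm38; the sources used here do not give the annotation release. Per the labels' protocols, ribosomal RNA was removed with Ribo-Zero and libraries were made with NEBNext Ultra, which does not mark the strand, so reads of overlapping genes on opposite strands cannot be told apart. Of 644 listed or leading genes, 11 share over 50% of their exon bases with another gene, Tagln, Tnnc2 and Itgam among them. Reads of close copies (hair keratins, Krt6a and Krt6b, globins, Stfa and Sprr families) are uncertain.

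Symbols, lengths and coordinates come from GENCODE M21 and promoters from RefSeq GRCm38.p6. CPM is a gene's count divided by the library total, times 1000000. Only the 6 Ctrl libraries entered the fit. edgeR 4.0.16 (R 4.3.3) fitted an intercept with TMM library sizes and an abundance-trended dispersion to genes averaging 1 CPM or more, and its goodness of fit p-values were adjusted by Benjamini-Hochberg over all of them. The code was tested on simulated data. There 18.4% of 49 genes with 4 times the trended dispersion passed, and 81.6% of 49 genes with 10 times. A gene that is not variable here can thus still differ between wounds. List scores average the log2 CPM (prior count 2) of members that reach a mean of 1 CPM. Alternatives were other scalings and filters, a common dispersion, DESeq2 1.42.0 and leaving out wounds. Depth is the total count per library, and floors of 3 counts cover counting error only. Python 3.11.15, pandas 2.3.3 and matplotlib 3.10.9 were used.

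Members, lists and tests were chosen with earlier results of these data known. The 35 lists hold 641 entries, of which 638 matched; the other 3 are not analysed here. The text names the 6 highest members by mean CPM and the member with the largest SD of log2 CPM per list, the 20 highest genes, the 15 variable genes with the smallest p at 10 CPM or more, and the 5 most even genes at 50 CPM or more. Members and genes beyond these, where named, were chosen after their values were seen. A few genes that this rule names are not reported here.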

Additional observations from a re-analysis of the deposited data

Results flagged for a closer look

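In 5 of 54 sets of 6 values, 1 wound lay further from the other 5 than Dixon's test allows at the 95% level, and about 1 in 20 sets is expected to do so by chance. The myofibroblast and smooth muscle score of Ctrl 2 was 6.22 on the log2 CPM scale, above the other wounds. The lymphatic endothelial score of Ctrl 3 was 2.93, below the others, which is the wound with the highest hair genes. The interferon response score of Ctrl 4 was 4.23, above the others. The low-oxygen and glycolysis score of Ctrl 1 was 7.33 and its immediate early and heat shock score 5.84, both above the others. No cause was tested for any of them.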

How the results depend on the processing

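No paired analysis was possible because all values come from 1 group. The 681 variable genes became 673 with DESeq2 size factors, 685 with plain totals, 718 without a filter, 740 with filterByExpr and 632 with a common dispersion; filterByExpr kept 439 and the common dispersion 486 of the 681. DESeq2's own marking of dispersion outliers gave 233, all among the 681. Leaving out each wound gave 563 to 677. The 2 further fits, chosen after seeing the data, gave 613 without Ctrl 3 and Ctrl 4 and 546 without Ctrl 1 and Ctrl 3, of which 347 and 317 were among the 681. Of the 15 named follicle genes only Krt75 lost its call, without Ctrl 3 and Ctrl 4, where 5 others kept theirs and the rest were not tested. In the other fits the genes kept their call wherever they were tested, which was 11 of 15 without Ctrl 3 and 2 of 15 under filterByExpr. Genes tested without Ctrl 3 but not without both wounds were tested only because Ctrl 4 is high.

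The 100 highest genes held 29.1% of counts on average, 28.7% to 29.6% with a wound left out, and 23.8% when abundant noncoding and mitochondrial RNA left the total. Leaving out each wound moved the number of genes at 1 CPM in every wound between 16009 and 16110, and the median SD of log2 CPM between 0.23 and 0.26. The highest-to-lowest fold of the hair score was 316, 733 with a prior count of 0.5 and 19.7 without Ctrl 3, so shares describe that list better. Without the wound at its extreme, the fold became 4.11 for melanocyte (20.7 with all 6), 1.17 for low-oxygen (2.19), 1.3 for interferon (2.28), 1.38 for adipocyte (2.31), 3.48 for neutrophil (7.01), 2.35 for wound edge (4.08) and 1.93 for suprabasal genes (3.11). As a share of TPM, 24 of 33 lists moved by more than the SD between wounds. With 7267879 counts in the shallowest wound, genes under 0.413 CPM there are not resolved.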
